A study of Mus musculus with 2 samples.

Results

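Potassium channel genes were read across a 5-hydroxymethylcytosine (5hmC) map of prospermatogonia, which are the germ cells of the foetal mouse testis. The members were all protein-coding autosomal genes of mouse build mm10 whose symbol begins with Kcn, apart from Kcnq1. The annotation held 98 genes with such a symbol. Of these, 4 were non-coding, 2 coding genes lay on the X chromosome, and Kcnq1 was set aside, which left 91 members of 20560 autosomal protein-coding genes. None of the members was chosen by its signal.

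The samples were wild-type (WT) cells taken at E17.5 of embryonic life, and 30000 germ cells from several embryos were pooled. From them came 1 library captured for 5hmC by 5hmC-Seal, which attaches a biotin-tagged glucose to the base and pulls the tagged DNA down on streptavidin, and 1 library of the same DNA before capture. Both belonged to batch 1. Only the peak list of the captured library was analysed here. It has no replicate and no read counts. The depth is therefore unknown, no test across samples was possible, and every comparison below is a description of peak calls in this library. The labelled cell type could not be checked, since the list measures no expression. The list held 108395 peaks with a median width of 636 bp and a median fold enrichment, the authors' ratio of captured signal to background, of 3.35.

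5hmC is made by TET enzymes from 5-methylcytosine, and in many cell types it lies inside genes. Potassium channels set the resting voltage of cells and end action potentials. A channel is built from pore subunits, which fall into voltage-gated, inwardly rectifying, K2P (two-pore-domain) and ion-activated families, and from auxiliary subunits that change its gating or its place in the cell. Most of these genes are best known from nerve, heart and muscle. The sperm channel SLO3, encoded by Kcnu1, is the one most tied to male germ cells.

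As a family, the members were covered about as much as other genes of their length. A peak overlapped the span of 72 of 91 members (79.1%; exact Clopper-Pearson 95% interval 69.3 to 86.9, which covers counting error over genes only), against 64.3% of the 20469 other autosomal protein-coding genes. The members were longer, however, with a median span of 32876 bp against 17505 bp. The median share of the span covered by peaks was 4.0% in members (95% order-statistic interval 2.21 to 6.31) and 2.75% in the other genes. Each gene was therefore ranked by this share among the 200 other genes nearest to it in length, on a scale from 0 to 100 with ties split evenly. The median rank of the members was 49.5, against 47.8 for the other genes. The share lay above the median of genes of like length in 45 of 91 members, or 49.5%, against 43.5% of the other genes. The order turned among genes of 5 kb or more, where 41 of 85 members lay above, against 50.1% of other genes, and the median share was 3.87% in members and 4.26% in other genes. The share was in the top 10% in 8 of the 91 members, 8.79%, against 9.96% of the other genes, and these shares lie near the background. Genes under 10 kb without a peak tie with each other and could not reach the bottom 10%. Nor could some longer ones, such as Kcna2 at 24.1 kb, rank 12.25. Of the 71 members of 10 kb or more, 9 were in the bottom 10%, 12.7% against 7.37% of the other genes of that length. The members there were longer, with a median of 51.4 kb against 33.3 kb. By length the shares were 5.88% against 5.17% at 10 to 50 kb, and 15.0% against 11.5% at 50 to 200 kb. At 200 kb or more they were 23.5% against 10.8%.

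**Figure D1:**
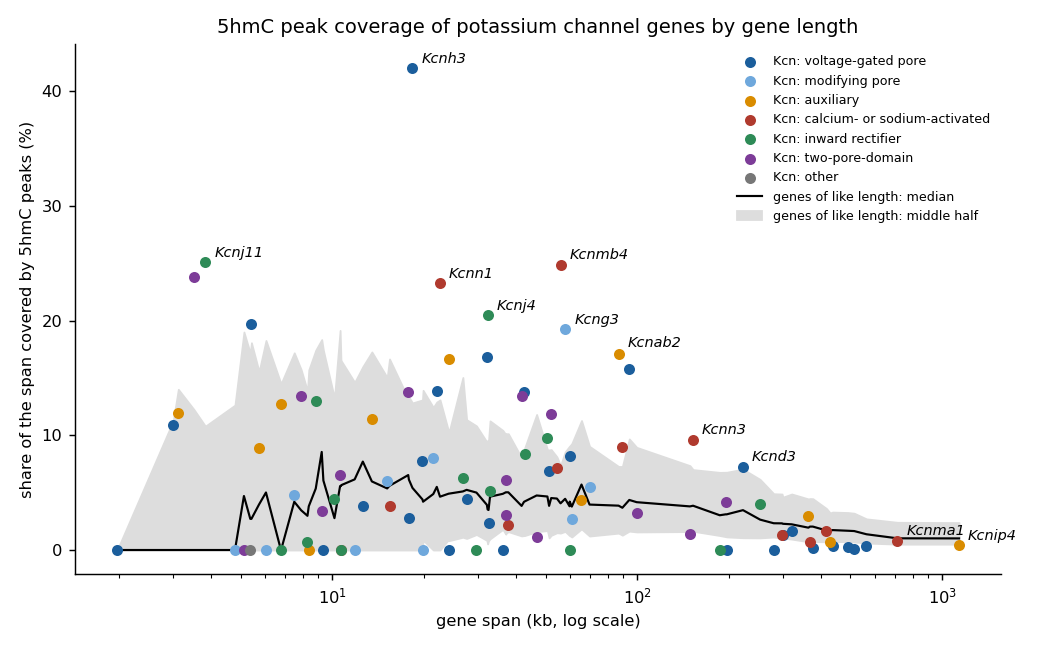
Share of each gene span covered by peaks (%, vertical) against the length of the span (kb, log scale). Points are the 91 potassium channel genes by class, the line is the median and the band the middle 50% of the 200 other genes nearest in length. Kcnh3 stands highest at 42.0%, and most members of 200 kb or more lie under the line.

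The spread within the family was wide. Among members of 5 kb or more the highest share was 42.0% in Kcnh3, a brain-enriched channel of the EAG family, on chromosome 15 from 99224517 to 99242818. Kcnh3 held 5 peaks on 18.3 kb, and genes of like length had a median share of 5.42%. Its widest peak, 3818 bp, ran from 99225774 to 99229591 at a fold of 3.51. Next came Kcnmb4, which encodes the neuronal beta subunit of the large-conductance calcium-activated (BK) channel. Kcnmb4 spans 56.0 kb on chromosome 10 (116417861 to 116473859) and carried 9 peaks over 24.9% of its length, against 4.07% in genes of like length. Its rank of 99.0 was the highest of the 91 members. The peaks lay along nearly the whole span, the widest (4238 bp) from 116435965 to 116440202 at a fold of 4.48. The small-conductance calcium-activated channel gene Kcnn1 had 23.3% covered by 5 peaks, and the inward rectifier gene Kcnj4 had 20.5% by 7 peaks. Kcna7, Kcng3, Kcnab2, Kcnh2 and Kcnip2 followed, with 19.7%, 19.3%, 17.1%, 16.8% and 16.7%. These 9 genes had spans under 100 kb, and none of their peaks reached a −log10 q of 5.

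At the other end stood long genes with few peaks. Kcnh5, a voltage-gated channel gene of 280 kb on chromosome 12, had no peak, where 97.5% of genes of like length had at least one. Kcnc2, which encodes the fast Kv3.2 subunit, and Kcnj3, which encodes the GIRK1 subunit of G-protein-gated channels, had none over 196 kb and 186 kb. Kcnd2, the gene of the A-type subunit Kv4.2, had 1 peak of 618 bp on 514 kb, a share of 0.120% against 1.65% in genes of like length. Kcnh8 likewise had 1 peak on 376 kb, a share of 0.139% against 2.04%. The ranks of these 5 genes, 1.25 to 4.50, were the lowest of the family. Kcnj16 (59.9 kb) and Kcna4 (36.2 kb) were the next longest of the 19 members without a peak, and 8 of those 19 were shorter than 10 kb.

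Coverage relative to like genes differed by gene length. The length classes used here were set after the values were seen. In the 17 members of 200 kb or more, 3 lay above the median of genes of like length, or 17.6% (exact interval 3.80 to 43.4), against 49.9% of the 928 other genes of that class. Their median share was 0.703%, against 2.03%. In the 20 members of 50 to 200 kb the order was the other way, with 13 above (65.0%; 40.8 to 84.6), against 49.9% of other genes, and a median share of 7.04% against 4.06%. The order of the counts turned for stronger peaks. With a −log10 q of at least 3 the count was 8 of 20, against 1675 of 3751 other genes, and with at least 5 it was 1 of 20, against 752 of 3751. At both thresholds the median share was 0% in members and in other genes. These counts therefore mostly tell whether a gene held such a peak, and cannot show whether the order of shares held. A peak of any strength was found in 17 of these 20 members, 85.0% against 91% of other genes. In the 34 members of 10 to 50 kb, 19 were above, 55.9% against 50.2%. A peak was found in 27 of the 34, 79.4% against 75.5%, and in 16 of the 17 long members, 94.1% against 97.4%. In the 20 members under 10 kb, 10 were above, 50.0% against 31.5%, and 12 had a peak, 60.0% against 33%, but the members' median length in that class was 5.90 kb and that of other genes 3.84 kb. The 3 long members above the median were Kcnd3 at 7.28% with 15 peaks, Kcnj6 at 4.0% with 14 and Kcnip1 at 2.97% with 14.

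Strong peaks made up a larger share of the peaks on long members than of those on shorter ones, a contrast that other genes also showed, while the median fold was 3.35 on long and 3.18 on shorter members. Of the 106 peaks on members of 200 kb or more, 18 (17.0%) had a −log10 q of at least 5, against 8.01% of the 13241 peaks on other genes of that length. Of the 208 peaks on shorter members, 1 did (0.481%), on the inward rectifier gene Kcnj12, against 3.40% to 4.23% of the peaks on other genes in the 3 shorter length classes. The larger share on long members stands beside fewer peaks in all, a median of 1.12 per 100 kb against 2.75 on other long genes. Peaks with a −log10 q of at least 5 numbered 18 on 17 long members and 1061 on 928 other long genes. They were therefore not more frequent per long member. At least 1 such peak lay on 12 members, 13.2% against 9.22% of other genes, and 11 of them were among the 17 long ones (64.7% against 53.6% of other long genes). The highest fold in the family, 8.42, belonged to the only peak of Kcnt2, a sodium-activated channel gene, on chromosome 1 from 140301349 to 140303826. Kcnma1, the pore gene of the BK channel, had 7.72 on chromosome 14 from 23534853 to 23535833, and Kcnmb2, which encodes a BK beta subunit, had 7.71 on chromosome 3 from 32003037 to 32003813. Kcnip4, a Kv4 channel-interacting protein gene and at 1136 kb the longest member, had 6.98 on chromosome 5 from 49191395 to 49192174. Kcnq3, whose product carries the neuronal M-current, had 6.85. When peaks below a −log10 q of 5 were left out, 10 of the 17 long members lay above the median of genes of like length, against 46.3% of other long genes, so the low position of the long members holds for the full list and not for its strongest peaks.

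The 28 genes of voltage-gated pore subunits had the lowest class median rank, 40, of the 6 classes with more than 1 member. Their median span was 39.4 kb. A peak was found in 22 of them, 78.6% against 64.3% of other genes and 75.5% of those of 10 to 50 kb. In 11 the share lay above the median of genes of like length, 39.3% (exact interval 21.5 to 59.4) against 43.5%. The intervals of all 6 classes for the share above that median held the 43.5% of other genes, so the order of the classes is a description only. In the Shaker genes, Kcna, 4 of 8 had a peak (50.0%, against 64.3% of other genes), and Kcna1, Kcna2, Kcna3 and Kcna4 had none. Paralogues within a subfamily often stood at opposite ends. Kcnd3 had 7.28% and Kcnd2 0.120%. In the Shaw genes, Kcnc1 and Kcnc4 had 13.7% and 13.9%, and Kcnc2 none. In the EAG group, Kcnh3 and the hERG gene Kcnh2 had 42.0% and 16.8%, whereas Kcnh7, Kcnh8 and Kcnh5 had 0.268%, 0.139% and 0%. Kcnh1 had 8 peaks over 1.66%. Kcnb2 had 3 peaks over 0.310% of 437 kb, and Kcnq3 and Kcnq5 had 7 over 1.34% and 4 over 0.386%. In the Kcnc and Kcnd genes the lowest share belonged to the longest member, while in the Kcnh genes it belonged to Kcnh5, which is shorter than Kcnh1, Kcnh7 and Kcnh8.

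**Figure D2:**
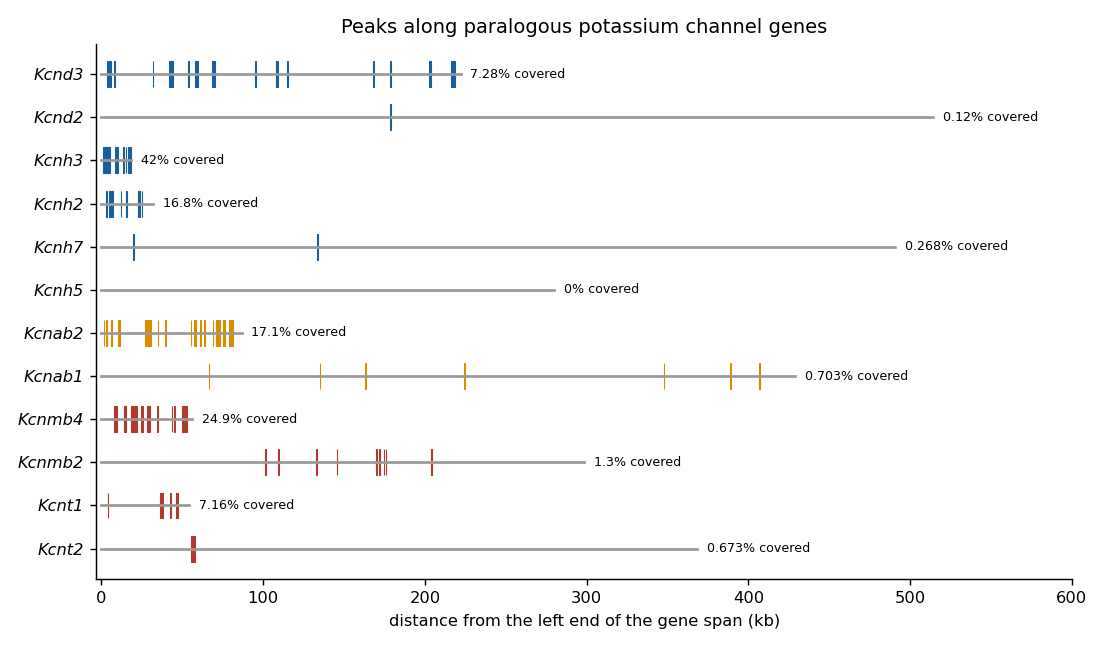
Peaks (coloured blocks, colours by class as in the plot of share against length) along the spans of 12 paralogous genes, drawn to scale in kb from the left end of each span with a minimum block width of 0.3 kb. Kcnd3, Kcnh3, Kcnab2 and Kcnmb4 carry peaks along their spans, while Kcnh5 has none and Kcnd2 and Kcnt2 have 1 each.

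Subunits that open only together with another pore subunit, here Kcnf, Kcng, Kcns and Kcnv, had peaks in 6 of 10 genes. That is 60.0%, against 64.3% of other genes, and their median rank was 45.5. Kcng3 led them with 10 peaks over 19.3% of 58.0 kb, rank 94.0, and Kcnf1, Kcng4, Kcns2 and Kcnv1 had no peak. Auxiliary subunits had the highest median rank, 65.0, and a median span of 24.1 kb. Peaks were found in 10 of 11 genes, 90.9% against 64.3% of other genes and 75.5% of those of 10 to 50 kb. In 7 the share lay above the median of genes of like length (63.6%, exact interval 30.8 to 89.1, against 43.5%). Kcnab2, the gene of the cytoplasmic Kv beta 2 subunit, had 16 peaks, the most of any member, over 17.1% of 86.8 kb, while its paralogue Kcnab1 had 7 over 0.703% of 429 kb. Among the Kv4-interacting genes, Kcnip2 had 16.7%, Kcnip3 4.40%, Kcnip1 2.97% and Kcnip4 0.433%. Of the Kcne genes, which encode small single-pass subunits, Kcne1, Kcne2 and Kcne4 had 11.4%, 8.88% and 11.9%, and Kcne3 none.

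Channels opened by calcium or sodium, with their subunits, had peaks in 11 of 12 genes (91.7%, against 64.3% of other genes) and a median rank of 46.5. The median span of these genes was 72.7 kb, and 91% of other genes of 50 to 200 kb had a peak. Kcnu1, the pore gene of the sperm channel SLO3, spans 89.3 kb on chromosome 8 from 25848627 to 25937943. It held 6 peaks over 8.94%, against 3.69% in genes of like length, a rank of 83.5. Its highest peak had a fold of 4.96 (25869927 to 25871640), and 3 of its 6 peaks reached a −log10 q of 3. Kcnma1, the BK pore gene, had 8 peaks over 0.813% of 713 kb, against 1.02%. Its beta subunit genes ranged from no peak in Kcnmb1, which lies wholly inside Kcnip1, to 24.9% in Kcnmb4. Kcnn3 had 14 peaks over 9.62%, rank 87.0, and Kcnn2 6 over 1.67%, rank 49.5.

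Inward rectifiers had peaks in 10 of 15 genes (66.7%, against 64.3% of other genes) and a median rank of 54.5. Their median span was 29.7 kb, and 75.5% of other genes of 10 to 50 kb had a peak. Kcnj6, which encodes GIRK2, carried 14 peaks over 4.0% of 253 kb, whereas Kcnj3, which encodes its partner GIRK1, had none. The ATP-sensitive channels pair an inward rectifier with a sulfonylurea receptor, and each pore gene lies next to a receptor gene. Kcnj11, on chromosome 7 from 46097123 to 46100952, had 25.1% of 3.83 kb covered by 1 peak that reached past its lower end, and the neighbouring receptor gene Abcc8 had 9 peaks over 10.04%. Kcnj8 on chromosome 6 had no peak, and its neighbour Abcc9 had 4 peaks over 1.87%. The widest peak touching any member, 7327 bp on chromosome 1 from 172313654 to 172320980, covered only 473 bp of Kcnj9.

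K2P channels, which carry the leak current, had peaks in 13 of 14 genes (92.9%, against 64.3% of other genes) and a median rank of 54.8. The median span of these genes was 37.1 kb, and 75.5% of other genes of 10 to 50 kb had a peak. None of their 35 peaks reached a −log10 q of 5, against 3.40% to 4.23% of the peaks on other genes in the 3 length classes under 200 kb. Kcnk5 had the most, 7 over 13.5% of 41.7 kb. Kcnk2, the gene of the mechanosensitive channel TREK-1, had 5 over 4.14% of 195 kb. One of them, on chromosome 1 from 189386677 to 189390952, was 4276 bp wide with a fold of 4.88. Kcnk15 had no peak. Kcnrg, a regulator rather than a subunit and the only member outside the 6 classes, had none in its span and 1 within 1 kb of an end.

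**Figure D3:**
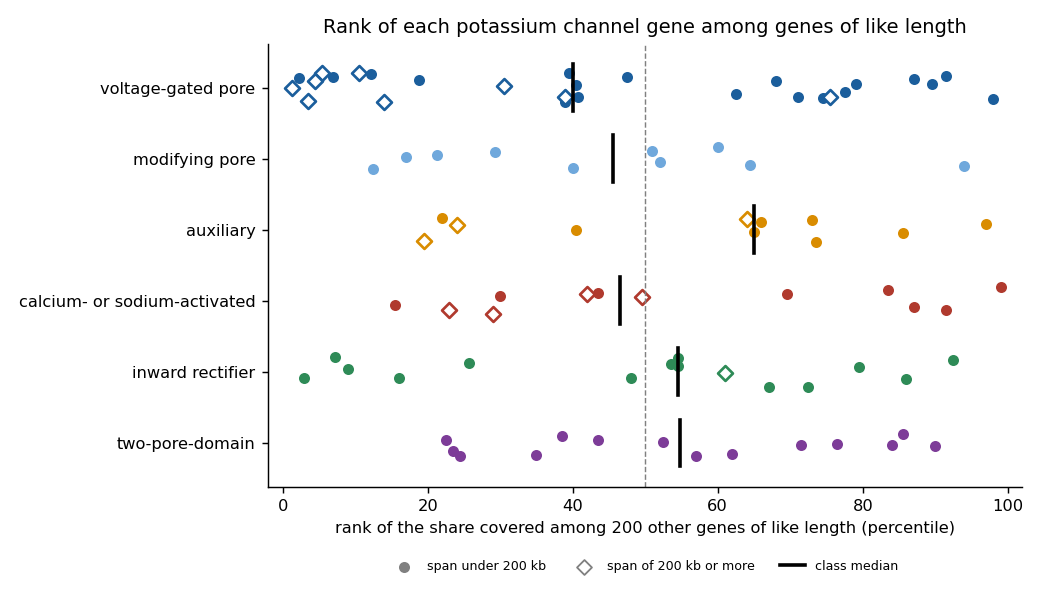
Rank of each member's covered share among 200 other genes of like length (percentile, horizontal) by class, with filled points for spans under 200 kb, open diamonds for spans of 200 kb or more and a bar at the class median. The 17 long members lie mostly on the left, and 6 of the 9 long voltage-gated genes have ranks of 14 or less.

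The surroundings of a member varied with its own coverage. The 500 kb on each side of a member, without the member itself, were covered to a median of 4.73%, against 5.34% for the other genes. Across the 91 members, Spearman's rho between the share of these flanks and the share of the span was 0.621, against 0.442 across the other genes. Genes that lie near each other share flanks and all values come from 1 library, so this is a description across genes, with no p-value. The members and the other genes were also unlike in ways that bear on rho. No peak, and so a tied share of 0%, was found in 19 of 91 members and 7313 of 20469 other genes. Between length and flank share, rho was −0.321 across members and −0.032 across other genes. In the 30 members with the least covered flanks (0.640% to 3.29%), 5 lay above the median of genes of like length and 18 had a peak. In the 30 with the most covered flanks (7.73% to 17.0%), 24 lay above and 29 had a peak. The median span was 60.5 kb in the former 30 and 20.6 kb in the latter, and other genes were not split in this way. Across other genes, rho between the flank share and the rank among genes of like length was 0.414, against 0.647 across members. The flanks of the long members had a median of 2.22%, against 3.42% for other long genes. When each long member was set beside 100 genes like it in both length and flank coverage, a choice made after seeing the data, 5 of 17 lay above the median in place of 3. Kcnmb4 stood apart from its surroundings, with 24.9% of its span and 4.96% of its flanks covered. So did Kcnh2, with 16.8% and 5.75%, and other members such as Kcnc4, with 13.9% and 3.98%, and Kcnk5, with 13.5% and 4.34%. These are examples among several. Kcng4, singled out after its values were seen, had no peak between flanks covered to 11.8%.

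**Figure D4:**
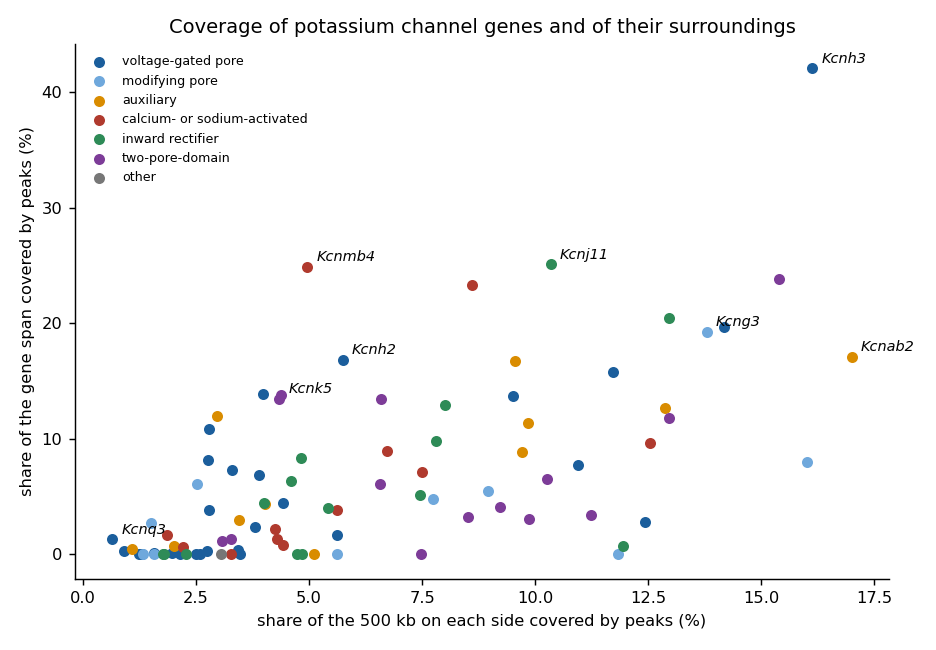
Share of each member's span covered by peaks (%, vertical) against the share of the 500 kb on each side covered (%, horizontal), coloured by class. Well covered genes lie mostly in well covered surroundings, with Kcnh3 at 42.0% and 16.1%, and Kcnmb4 lies high above members with similar flanks.

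Few start windows of the members held a peak, as in other genes. RefSeq start positions of build GRCm38.p6, the same build as mm10, were at hand for 68 members, in 93 start windows of 250 bases before a start. Some members had several windows, in part overlapping, so windows are not independent and exact intervals over them may be too narrow. A peak overlapped 4 of 93 windows, 4.30% (exact interval 1.18 to 10.6), against 3.83% of 19992 windows of other genes. All 4 were weak, with folds of 2.78 to 3.33. The dinucleotide CG, which reads the same on both strands, was counted in each window, and at least 1 was held by 96.8% of the members' windows and 93.7% of the others'. The 4 windows with a peak had 0 to 9 CG. Of the members' windows with under 10 CG, 4 of 55 (7.27%) had a peak, against 7.24% of other genes' windows. Of those with 10 or more, 0 of 38 had one, which allows a share of up to 7.89% by the limit of 3 counts and up to 9.25% by the exact interval, against 0.594% of other genes' windows. Around the outermost start of 45 members of 20 kb or more, 1 had a peak in the 1 kb before the start, 3 in the 1 kb after it and 11 in the third kb after it. These are 2.22%, 6.67% and 24.4%, against 4.73%, 4.47% and 15.6% of 7524 other genes. The members' bins were as uneven far from the start, with 1 gene in the seventh kb before it, 11 in the twelfth kb after it and 0 in the nineteenth. Of other genes, 11.1%, 14.2% and 13.8% had a peak in those bins. A dip at the start of the members therefore cannot be told from the scatter of their bins in 45 genes. Within 1 kb of either end of the span, 22 members (24.2%; 15.8 to 34.3) had a peak, against 27.9% of other genes.

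**Figure D5:**
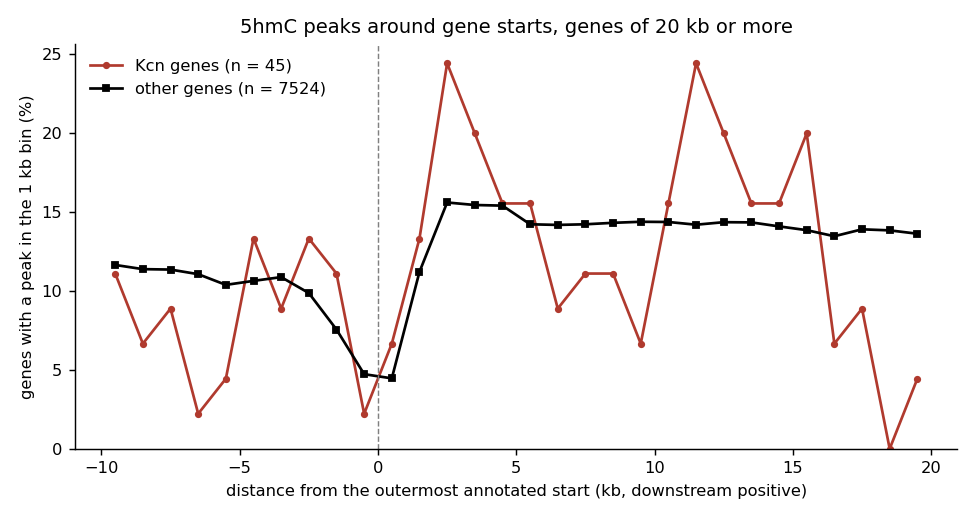
Share of genes with a peak in each 1 kb bin (%, vertical) by distance from the outermost annotated start (kb, downstream positive), for 45 potassium channel genes and 7524 other genes of 20 kb or more. The line of other genes dips at the start. The line of the potassium channel genes is uneven, since 1 gene is 2.22%, and is as low in some bins far from the start.

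The 4 windows under a peak are printed to show the 0 to 9 CG they hold, beside a median of 7 in all windows of the members, with each CG in capitals, 5′ to 3′ on the strand of the gene, from RefSeq. They lie at chr4:152448856-152449105 (minus strand, an inner start of the gene), chr14:20269270-20269519 (minus), chr19:5704221-5704470 (plus) and chr3:32491970-32492219 (minus, also an inner start).
Kcnab2: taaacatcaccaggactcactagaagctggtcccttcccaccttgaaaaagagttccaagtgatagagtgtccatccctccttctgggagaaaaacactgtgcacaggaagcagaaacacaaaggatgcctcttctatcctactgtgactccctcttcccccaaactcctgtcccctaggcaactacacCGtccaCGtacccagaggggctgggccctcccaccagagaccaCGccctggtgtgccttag
Kcnk16: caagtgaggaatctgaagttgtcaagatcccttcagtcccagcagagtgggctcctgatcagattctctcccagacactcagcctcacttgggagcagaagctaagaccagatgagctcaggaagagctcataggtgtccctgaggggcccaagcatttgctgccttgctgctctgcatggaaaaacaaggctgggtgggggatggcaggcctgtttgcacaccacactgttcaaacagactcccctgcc
Kcnk7: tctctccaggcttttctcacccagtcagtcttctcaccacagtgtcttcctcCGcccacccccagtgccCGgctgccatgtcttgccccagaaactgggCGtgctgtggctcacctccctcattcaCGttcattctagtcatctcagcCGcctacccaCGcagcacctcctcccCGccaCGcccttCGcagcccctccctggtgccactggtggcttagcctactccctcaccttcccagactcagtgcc
Kcnmb3: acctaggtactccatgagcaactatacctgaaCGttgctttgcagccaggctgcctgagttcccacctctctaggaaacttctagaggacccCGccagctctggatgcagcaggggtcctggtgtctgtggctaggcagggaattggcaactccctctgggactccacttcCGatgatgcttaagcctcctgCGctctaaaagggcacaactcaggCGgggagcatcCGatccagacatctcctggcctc
The Kcnab2 window holds 3 CG and lies under a peak of fold 3.01 (152447830 to 152449065). The Kcnk16 window holds none and its peak has a fold of 2.80, the Kcnk7 window holds 9 and its peak 3.33, and the Kcnmb3 window holds 6 and its peak 2.78. Both Kcnk genes encode K2P subunits.

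For contrast, the windows of the members with the highest and the lowest rank are shown, neither of which lies under a peak. They are chr10:116473524-116473773 (minus, just inside the end of the span) and chr12:75177333-75177582 (minus).
Kcnmb4: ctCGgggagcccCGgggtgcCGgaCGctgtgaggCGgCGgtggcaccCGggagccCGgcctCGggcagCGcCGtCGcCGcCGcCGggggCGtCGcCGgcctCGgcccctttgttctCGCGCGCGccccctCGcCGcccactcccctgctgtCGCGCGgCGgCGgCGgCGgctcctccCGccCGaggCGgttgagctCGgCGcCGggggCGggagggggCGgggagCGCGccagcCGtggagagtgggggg
Kcnh5: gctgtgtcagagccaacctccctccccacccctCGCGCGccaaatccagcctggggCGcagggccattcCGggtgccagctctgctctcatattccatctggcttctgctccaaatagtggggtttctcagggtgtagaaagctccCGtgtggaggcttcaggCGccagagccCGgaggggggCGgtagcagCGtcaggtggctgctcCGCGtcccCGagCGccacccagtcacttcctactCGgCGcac
The Kcnmb4 window holds 43 CG, the most of any member window, and the nearest peak lay 1.77 kb from this start. The Kcnh5 window holds 16 CG, and the nearest peak lay 71.0 kb away.

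Set beside other channel families, the members took a middle place, and no difference between families was tested. The median rank was 49.5 in potassium channel genes, 69.0 in 25 calcium channel genes, 28.5 in 21 TRP channel genes and 16.3 in 14 sodium channel genes. All 25 calcium channel genes, with a median span of 111 kb, had a peak. Of these, 7 were of 10 to 50 kb, 10 of 50 to 200 kb and 8 of 200 kb or more. Among other genes of those lengths, 75.5%, 91% and 97.4% had one. Of the long genes, 3 of 17 potassium channel genes and 5 of 8 calcium channel genes (62.5%) lay above the median of genes of like length, against 49.9% of other genes. A further 20 partner genes encode proteins that join, anchor or resemble potassium channels without bearing a Kcn symbol. Their median span was 42.2 kb and their median rank 46.3. A peak was found in 16 (80.0%), against 64.3% of other genes and 75.5% of those of 10 to 50 kb. In 9 (45.0%) the share lay above the median of genes of like length, against 43.5% of other genes. Dpp6 and Dpp10, whose products join Kv4 channels, had 8 peaks over 0.438% of 910 kb and 7 over 0.393% of 1514 kb. Lrrc52, which encodes the auxiliary subunit of SLO3, had 2 peaks over 6.79% of 21.1 kb, rank 60.0.

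Members that neighbour each other had like or unlike coverage from case to case. The adjacent pair Kcnj16 and Kcnj2 on chromosome 11, 38.2 kb apart, both lacked peaks, with flanks covered to 2.28% and 1.77%. In the Kcna cluster of chromosome 3, Kcna3 and Kcna2 had none and Kcna10 had 1 over 3.87%. In that of chromosome 6, Kcna5 and Kcna6 had 1 and 2, over 10.9% and 2.34%, and Kcna1 between them had none. Kcnk5 and Kcnk16 on chromosome 14, 79.6 kb apart, had 13.5% and 13.4%. Kcnj9 and Kcnj10, 11.9 kb apart on chromosome 1, had 13.0% and 5.13%, while Kcnj5 and Kcnj1, 28.0 kb apart on chromosome 9, had 0% and 6.31%.

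Other protein-coding genes touched few of these values. Of the 91 members, 10 shared part of their span with another protein-coding gene. Kcnmb1 and Kcnj13 lay wholly within such a gene, and a peak there cannot be assigned to either of them. No peak touched more than 1 member, so the 314 peaks on members were all distinct. Their median width was 666 bp and median fold 3.25, against 660 bp and 3.24 for the 56924 peaks on other genes.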

How the data were processed

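The captured library of WT prospermatogonia was profiled by 5hmC-Seal. MACS2 2.1.0 and Bowtie2 2.5.0, with deepTools 3.5.1, bedtools 2.27.1, SAMtools 1.16.1 and Trim Galore, appear per the submitters' processing notes, with build mm10. What each did, its settings and the control are not given there. The deposited list gives each broad peak a score, a fold enrichment (a ratio), and a −log10 p and −log10 q. The lowest deposited −log10 q was 1.01, so weak calls are included and the number of peaks follows the caller's threshold.

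Gene spans came from a RefSeq table of GRCm38.p6 without exons; 105 autosomal protein-coding genes in the opening 3 Mb gap were left out. A peak counted from 1 bp of overlap. Covered share is the part of the span under peaks. Overlap functions were tested on simulated data. Alternatives were −log10 q of at least 3 or 5, merged peaks, other overlap rules, other genes of like length, unshared span and a 250 bp end window. Python 3.11.15, pandas 2.3.3 and SciPy 1.17.1 were used.

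Members and lists were chosen with earlier results of these data known. The text names the 10 members with the largest share (5 kb or more), the 10 with most peaks, the 5 with the highest fold, the 5 longest without a peak, the 5 highest and 5 lowest ranks, the leader of each class and 10 fixed names; other members appear beside their subfamily. Results for some of these genes are not reported here.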

Additional observations from a re-analysis of the deposited data

How the results depend on the processing

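The threshold of the peak list moved the values most. With a −log10 q of at least 3, 35.2% of members had a peak, against 23.6% of other genes. The median share fell to 0%, as in other genes, and 24 of 91 members lay above the median of genes of like length, against 21.6% of other genes. The top 10% held 8 of 91, against 8.67%, where the order turned. A gene-end peak was found in 0% of members, against 4.2%. With at least 5 the values were 13.2% of members, against 9.22%, a median share of 0%, and 0% with a gene-end peak, against 1.32%. At that threshold 11 of 91 members lay above the median, against 8.89% of other genes, and 1 of 91 was in the top 10%, against 5.31%. At both thresholds a share of 0% is the lowest possible value. A gene-end window of 250 bp gave 13.2% of members, against 13.8%. Merged peaks, the midpoint or half-peak rule, genes of 5 kb or more, 10 length classes, 100 genes of like length and unshared spans left the results run under them within the intervals or within 1.5 times the counts given above. The order against other genes turned for gene-end peaks under the midpoint rule (20.9% of members, against 19.1%) and the half-peak rule (20.9%, against 18.9%). In genes of 5 kb or more it turned for the median share (3.87%, against 4.26%) and the count above the median (41 of 85, against 50.1%). For 2 alternatives chosen after seeing the data, the order of the count above the median held. Genes like in length and flanks gave 43 of 91 members above, against 42.2%, and peaks per 100 kb gave 45 of 91, against 43.0%. The top 10% by peaks per 100 kb held 9 of 91 members, against 9.16%, so its order turned. Of the 17 members of 200 kb or more, 3 to 5 lay above the median under the other settings run for that count, 6 with a −log10 q of at least 3 and 10 with at least 5. No paired analysis was possible because only 1 library has a file used here. Depth is unknown, so an uncovered gene may hold 5hmC below what the caller could detect.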
